A study of Mus musculus with 4 samples.

Results

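The genes described here are 7 transporters through which a neuron fills its synaptic vesicles with glutamate and zinc, takes glutamate back up and imports the glutamine from which glutamate is made. They were taken by symbol from the 32531 gene names of the deposited counts: Slc17a7, Slc17a6 and Slc17a8, Slc30a3, Slc1a1, Slc38a1 and Slc38a2. All 7 were counted in every library and all 7 passed the filter on low counts. The libraries came from cerebral cortex of adult Cbln1-EGFP-Rpl10a mice of line NIDA030, in which a transgene named for Cbln1 tags ribosomes with EGFP, and every library carried it. One group, IP, was polysome-bound RNA captured with anti-EGFP antibodies (replicates 2 and 4), and the other, input, was total RNA of cortex (replicates 2 and 4). The labels give neither the number of animals nor whether tissue was pooled, so p-values here reflect only library-to-library spread, possibly technical. No library from mice without the tag is analysed here, so RNA that binds the beads without tagged ribosomes was not measured.

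A glutamatergic neuron loads glutamate into vesicles with a proton-driven vesicular transporter. Slc17a7 encodes VGLUT1, the main form in cortical excitatory neurons, Slc17a6 encodes VGLUT2, known from thalamic and other subcortical neurons and from some cortical ones, and Slc17a8 encodes VGLUT3, made by few cells in cortex. Slc30a3 encodes ZnT3, which loads zinc into the vesicles of a subset of glutamatergic terminals, and Slc1a1 encodes EAAC1, the neuronal glutamate and cysteine carrier of the plasma membrane. Released glutamate is mostly cleared by astrocytes and returned as glutamine, and Slc38a1 and Slc38a2 encode the sodium-coupled carriers SNAT1 and SNAT2, which bring glutamine into neurons.

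The vesicular glutamate transporters are close relatives, so the parts of their messages that look most alike are shown to make clear how far their reads can be told apart. Over coding sequence, Slc17a7 and Slc17a6 were 72.01% identical, Slc17a7 and Slc17a8 70.96%, and Slc17a6 and Slc17a8 71.51%. The longest run of bases shared without a difference was 21, 17 and 25 bases for these pairs. The stretch of 90 in-frame coding bases at which the 3 genes differ least follows, from the GENCODE vM21 transcripts, with capitals at the 21 positions where they are not all the same. It lies within 1 coding exon of each gene on GRCm38: chr7:45168839-45168928 (plus strand) in Slc17a7, chr7:51625405-51625494 (plus strand) in Slc17a6 and chr10:89606616-89606705 (minus strand) in Slc17a8.
Slc17a7: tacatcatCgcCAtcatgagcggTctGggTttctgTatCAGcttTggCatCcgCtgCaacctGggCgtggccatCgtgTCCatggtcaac
Slc17a6: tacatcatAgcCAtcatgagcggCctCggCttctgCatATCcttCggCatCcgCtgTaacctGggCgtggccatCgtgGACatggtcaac
Slc17a8: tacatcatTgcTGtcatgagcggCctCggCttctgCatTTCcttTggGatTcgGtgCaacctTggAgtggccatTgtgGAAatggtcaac

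The glutamine carriers both lie on chromosome 15, on the same strand, and were 62.38% identical over coding sequence, with a longest shared run of 17 bases. Their most alike 90 coding bases are shown in the same way, with 21 positions in capitals. They lie at chr15:96609879-96609968 in Slc38a1 and at chr15:96697945-96698034 in Slc38a2, both on the minus strand of GRCm38 and each within 1 coding exon.
Slc38a1: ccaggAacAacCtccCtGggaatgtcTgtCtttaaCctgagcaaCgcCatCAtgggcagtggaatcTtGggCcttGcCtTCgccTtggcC
Slc38a2: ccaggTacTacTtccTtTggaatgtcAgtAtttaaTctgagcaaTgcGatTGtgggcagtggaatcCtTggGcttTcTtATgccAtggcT

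Differences are spread through even these stretches. The read length is not given in the sources used here, and reads that align to more than 1 place were not counted.

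On GRCm38 the 7 protein-coding genes lie on 4 autosomes besides chromosome 7. Slc17a7 lies at 45163949 to 45176142 and Slc17a6 at 51622006 to 51671119 of chromosome 7, both read from the plus strand. Slc17a8 is at 89574020 to 89621253 of chromosome 10 (minus strand), Slc30a3 at 31086106 to 31108237 of chromosome 5 (minus strand) and Slc1a1 at 28835049 to 28913960 of chromosome 19 (plus strand). Slc38a1 (96571418 to 96642913) and Slc38a2 (96687392 to 96699730) are on chromosome 15, minus strand. Slc1a1 alone among them shares exon sequence with another annotated gene, 4430402I18Rik on the opposite strand, over 2631 of its 8257 exonic bases. The strand setting of the counting is not known, so Slc1a1 is uncertain to that extent. The antisense gene 4430402I18Rik was itself scarcer, with a mean of 5.82 ± 0.251 CPM in IP against 9.03 ± 0.504 CPM in input (n = 2 each, SD). It was called lower in IP (edgeR adjusted p = 0.0133). Reads ambiguous between genes were left out of the counts, so this level does not bound the uncertainty of Slc1a1.

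Counts assigned to genes ranged from 39750468 to 47567384 per library. Cbln1, the gene for which the line is named, had a mean of 84.0 ± 21.7 CPM in IP against 10.2 ± 2.39 CPM in input (n = 2 each, SD). CPM are counts scaled to a common library size, adjusted by the trimmed mean of M values (TMM). Of 12 markers of glutamatergic cortical neurons, the summed level was 6523 and 6900 CPM in IP and 5054 and 5332 CPM in input. Most of that sum and of its difference came from Camk2a and Sv2b. Camk2a had a mean of 3742 CPM in IP against 2691 CPM in input, and Sv2b 1154 against 726 CPM. Of the 12 markers 6 were called higher and 3 lower (Nrgn, Rorb and Foxp2), where 23.4% of all genes tested were higher and 22.4% lower. By their descriptions the IP libraries ran on lane 1 and the input libraries on lane 2, which means that lane and group cannot be told apart.

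RNA of the vesicular glutamate transporter genes Slc17a7 and Slc17a6 was higher in IP, by 1.35-fold and 1.30-fold. None of the 7 was called lower, where 22.4% of all genes tested were, though Slc17a8 lay lower in both IP libraries without passing. Slc17a7 and Slc17a6 were the 2 of 7 transporters that passed the test (quasi-likelihood test of edgeR, p adjusted by Benjamini-Hochberg, threshold 0.05). Of the 16600 genes tested, 23.4% were higher and 45.8% passed in either direction, so 2 of 7 higher is near the background share. Among the 3626 genes with a mean of 50 to 500 CPM, 64.9% passed and 43.9% passed as higher in IP. None of the 4 transporters in that range (Slc30a3, Slc1a1, Slc38a1 and Slc38a2) passed, and no test compared them with the other genes. Slc17a7 and Slc17a6, with means of 612.8 and 32.3 CPM over all libraries, lie outside that range. The median log2 fold change was 0.11 over the 7 transporters and -0.04 over all genes tested. For 6 of the 7 the IP libraries did not overlap the input libraries, which held for 73% of all genes tested, so the share is near the background.

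Slc17a7 had 28070 counts (IP 2), 28900 (IP 4), 22150 (input 2) and 24081 (input 4). These counts correspond to 738.7 and 668.6 CPM in IP and 487.4 and 556.5 CPM in input, so the lower IP library stood above the higher input library. The mean rose from 521.9 ± 48.8 CPM in input to 703.7 ± 49.6 CPM in IP (SD, n = 2 each), a log2 fold change of 0.43 with a standard error of 0.09 (edgeR adjusted p = 0.000891). This is a 1.35-fold difference with a 95% interval of 1.18 to 1.54, and 77.1% of genes tested had a lower log2 fold change.

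Slc17a6 stood at 38.5 and 34.5 CPM in IP against 29.1 and 26.9 CPM in input, from 1463 (IP 2), 1492 (IP 4), 1322 (input 2) and 1165 (input 4) counts. Both IP libraries again lay above both input libraries. Its log2 fold change of 0.38 (SE 0.12) passed (edgeR adjusted p = 0.0167), a 1.30-fold difference with a 95% interval of 1.09 to 1.56. The call was lost without IP 2 (log2 fold change 0.32, edgeR adjusted p = 0.0949) and without input 4 (0.34, edgeR adjusted p = 0.103).

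Slc17a8 was the scarcest of the 7, with 67 and 103 counts in IP against 150 and 137 in input. It stood at 1.76 and 2.38 CPM in IP and at 3.30 and 3.17 CPM in input, and here both IP libraries lay below both input libraries. The log2 fold change of -0.64 had a standard error of 0.32 and did not pass (edgeR adjusted p = 0.116), and the 95% interval of the fold ran from 0.402 to 1.03. The interval is wide and includes no difference.

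**Figure D1:**
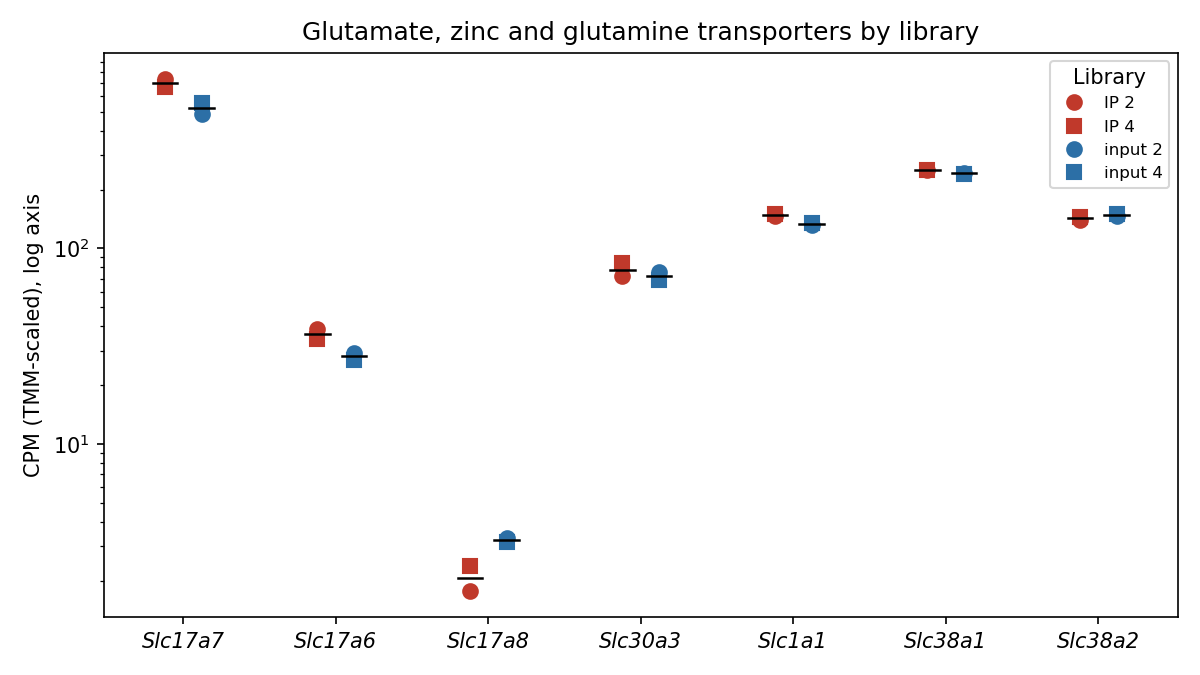
Abundance of the 7 transporters in each library, in TMM-scaled CPM on a log axis, with IP in red and input in blue, circles for replicate 2, squares for replicate 4, and black bars for group means. Slc17a7 and Slc17a6 sit higher in both IP libraries, and Slc17a8 sits lower in both at 1.76 and 2.38 CPM. Within Slc38a1, and likewise within Slc38a2, the 4 libraries lie close together.

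Thalamic neurons are the best known source of Slc17a6, so their markers are set beside it. Of 13 thalamic markers 12 were tested, 3 rose and 4 fell, with a median log2 fold change of -0.36. Over all genes tested 23.4% were higher and 22.4% lower, so 3 of 12 higher is near the background share. Among these calls, Calb2 (edgeR adjusted p = 0.0484) overlapped between the groups. Slitrk6 (edgeR adjusted p = 0.0495) rested on 8 and 7 counts in IP against 34 and 24 in input. The summed level of the thalamic markers was 295.9 and 279.7 CPM in IP and 356.9 and 358.9 CPM in input. That lower sum came from 1 gene, Rora, a nuclear receptor also made outside the thalamus, which fell from 241.5 ± 3.48 CPM in input to 165.8 ± 2.50 CPM in IP. The other thalamic markers summed to 128.3 and 115.6 CPM in IP against 117.8 and 114.9 CPM in input, with overlap between the groups. Of that sum Ntng1 alone held 63.5 and 57.4 CPM in IP and 51.3 and 53.2 CPM in input. Tcf7l2, a transcription factor of thalamic neurons, fell from 16.9 ± 1.38 CPM in input to 8.25 ± 1.36 CPM in IP (SD, n = 2 each), and the thalamic marker Gbx2 was at 0 in all 4 libraries. Lef1, a Wnt pathway transcription factor, moved the other way, from 1.71 ± 0.228 CPM in input to 9.25 ± 1.69 CPM in IP. Without IP 2 only 2 thalamic markers were called lower and the median was -0.17, and without input 4 the count was again 2 and the median -0.24. With library sizes alone 1 was called higher and 6 lower, with a median of -0.61. How far these markers are particular to thalamic neurons in this tissue was not tested, nor was the part of thalamic RNA in the Slc17a6 value. IP was polysome-bound RNA captured through tagged ribosomes and input was total RNA of cortex. Which cells carried the tag and how far an RNA was bound to polysomes cannot be told apart here.

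The vesicular zinc transporter gene Slc30a3 overlapped between the groups. Its level was 72.2 CPM (IP 2), 83.8 CPM (IP 4), 75.4 CPM (input 2) and 69.0 CPM (input 4). Only IP 4 stood above both input libraries. The log2 fold change of 0.11 (SE 0.11) did not pass (edgeR adjusted p = 0.422), and the 95% interval of the fold ran from 0.924 to 1.26.

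The neuronal glutamate carrier gene Slc1a1 stood at 147.4 and 149.2 CPM in IP and at 131.2 and 134.7 CPM in input. The groups did not overlap and replicates lay close together, yet the difference of 1.12-fold did not pass (log2 fold change 0.16, standard error 0.09, edgeR adjusted p = 0.178). Its 95% interval ran from 0.974-fold to 1.28-fold.

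The glutamine carriers stood nearly level. Slc38a1 was at 251.9 and 253.3 CPM in IP and at 243.1 and 241.4 CPM in input, which is a log2 fold change of 0.06 with a standard error of 0.09 (edgeR adjusted p = 0.608). Slc38a2 was at 140.5 and 145.2 CPM in IP and at 147.2 and 149.7 CPM in input, which is a log2 fold change of -0.06 with a standard error of 0.09 (edgeR adjusted p = 0.655). The IP libraries lay just above the input libraries for Slc38a1 and just below them for Slc38a2. The 95% intervals of the fold were 0.917 to 1.19 and 0.841 to 1.10, which leave out differences of 1.35-fold, the size seen for Slc17a7.

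These directions hold relative to TMM scaling. With library sizes alone the median of all genes moved to -0.29 and every transporter moved down by about the same amount. Slc17a7 then stood at 0.17 (edgeR adjusted p = 0.125) and Slc17a6 at 0.12 (edgeR adjusted p = 0.442), neither passing. Slc30a3, Slc1a1 and Slc38a1 turned negative, at -0.15, -0.10 and -0.20 without passing, while Slc38a2 at -0.31 (edgeR adjusted p = 0.00779) and Slc17a8 at -0.90 (edgeR adjusted p = 0.0269) passed as lower. The order of the 7 by log2 fold change, from Slc17a7 down to Slc17a8, was the same under both scalings.

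**Figure D2:**
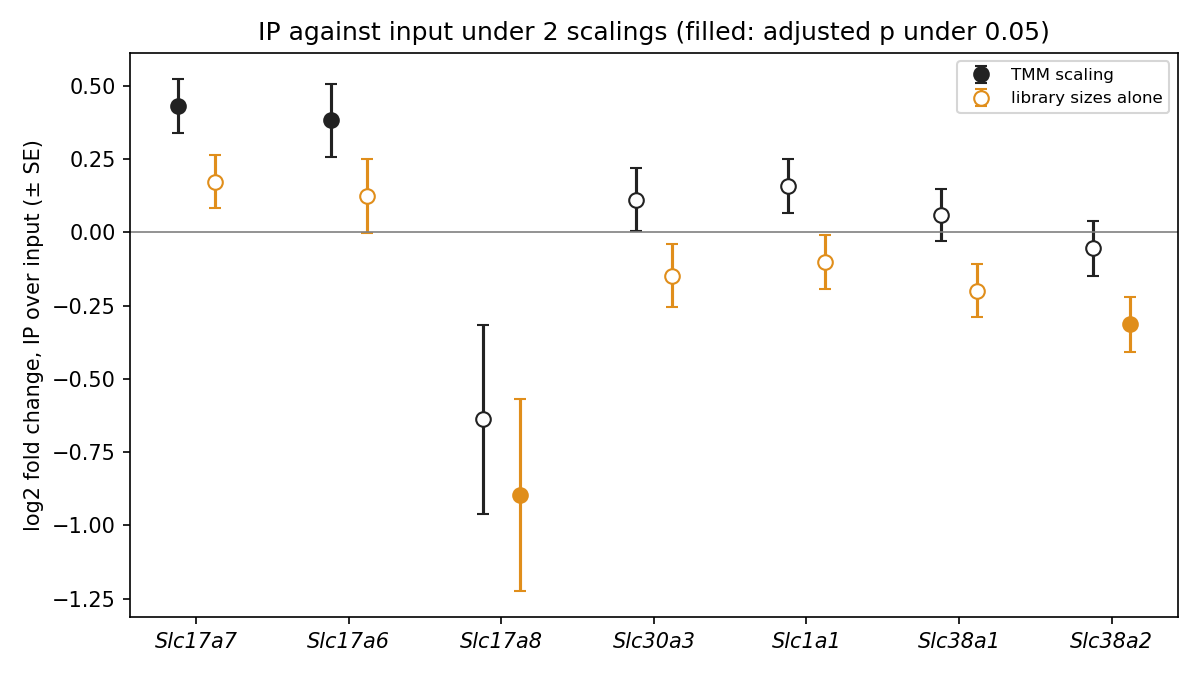
Log2 fold change of IP over input for each transporter, with standard errors, under TMM scaling (black) and with library sizes alone (orange). Filled points passed an adjusted p of 0.05. Slc17a7 stands at 0.43 and 0.17 and Slc38a2 at -0.06 and -0.31, so the scaling shifts all points together and leaves the distances between genes.

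A ratio of genes within a library does not depend on that scaling. VGLUT1 was therefore set against each of the other transporters in the same library, with counts divided by exon length. Since Slc17a7 had the largest log2 fold change of the 7, the mean differences of these ratios restate the differences in fold, and their direction is no separate result. The groups did not overlap in 4 of the 6 ratios. Against Slc38a2 the log2 ratio was 3.11 and 2.92 in IP and 2.44 and 2.61 in input, a 1.40-fold higher ratio in IP. Against Slc38a1 it was 3.23 and 3.08 in IP and 2.68 and 2.88 in input (1.29-fold), and against Slc1a1 2.94 and 2.78 in IP and 2.51 and 2.66 in input (1.21-fold). The RNA ratio of Slc17a7 to these glutamine and glutamate carrier genes was thus higher in both IP libraries than in both input libraries. Against the scarce Slc17a8 it was 8.52 and 7.94 in IP and 7.01 and 7.27 in input (2.13-fold).

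Against the other members the libraries overlapped. The log2 ratio of Slc17a7 to Slc30a3 was 2.43 and 2.07 in IP and 1.76 and 2.08 in input, and that to Slc17a6 was 4.26 and 4.28 in IP and 4.07 and 4.37 in input. The ratio of VGLUT1 to VGLUT2 in IP thus lay within the spread of the input libraries, and without input 2 its difference turned to -0.10. With 2 libraries in each group an exact two-sided permutation test cannot go below p = 0.333, which was the p of each of the 4 ratios without overlap (0.556 adjusted over the 10 ratios and shares computed), so none of these can pass.

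**Figure D3:**
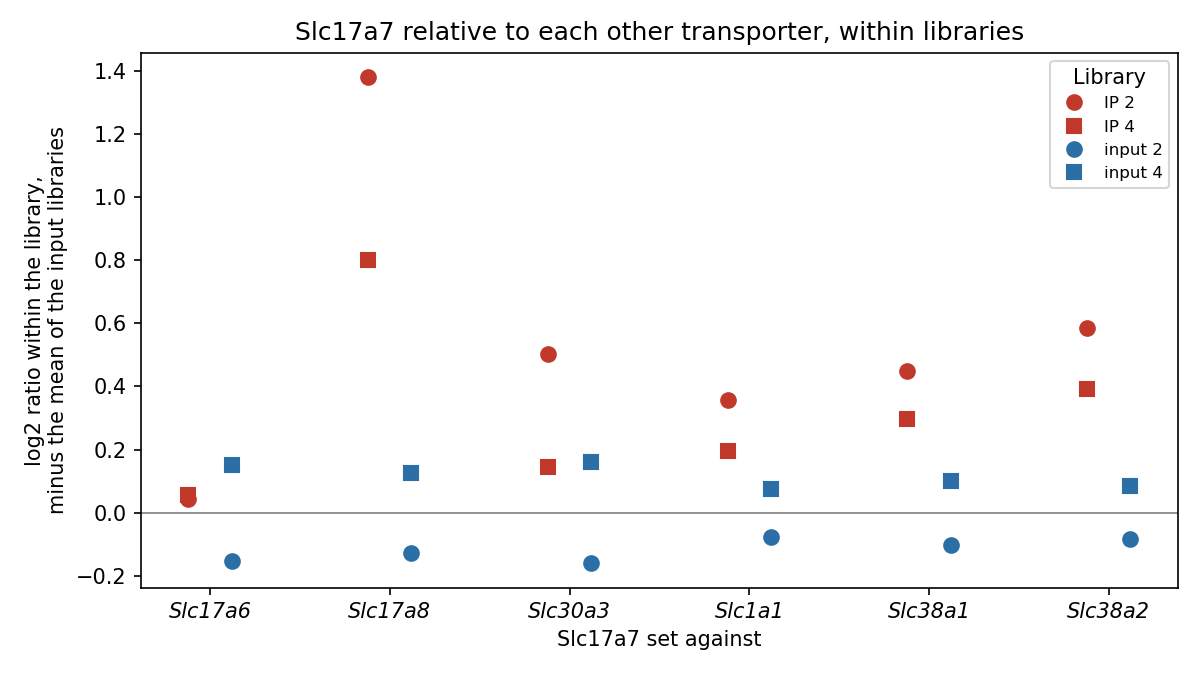
Log2 ratio of Slc17a7 to each other transporter within each library, minus the mean of the input libraries, with IP in red, input in blue, circles for replicate 2 and squares for replicate 4. The IP points lie above all input points for Slc17a8, Slc1a1, Slc38a1 and Slc38a2, and among the input points for Slc17a6, where the IP and input means differ by 0.05.

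Per kilobase of exon, Slc17a7 RNA was by far the most abundant of the 7 in all libraries. Its level was 96.8 ± 9.06 CPM per kilobase in input and 130.5 ± 9.20 in IP (SD, n = 2 each). The zinc transporter gene Slc30a3 followed at 25.5 ± 1.60 in input and 27.5 ± 2.89 in IP on the same scale. Slc38a2 (16.8 ± 0.197 in input), Slc1a1 (16.1 ± 0.299) and Slc38a1 (14.1 ± 0.0703) lay near each other. Slc17a6 stood at 5.19 ± 0.284 in input and Slc17a8 at 0.685 ± 0.0202.

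The order of the 4 middle genes rests on the length used, which for Slc38a1 is 17.236 kb over all annotated exons and 7.266 kb over the longest transcript. Over the longest protein-coding transcript, a choice made after the data were seen, Slc1a1, Slc30a3, Slc38a1 and Slc38a2 stood at 35.0, 34.6, 33.3 and 31.9 CPM per kilobase in input. Slc17a7 ranked first, Slc17a6 sixth and Slc17a8 seventh under each of the 3 lengths tried and in both groups.

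Of the RNA of the 3 vesicular glutamate transporters together, that of VGLUT1 made up 94.8% and 94.7% in IP and 93.7% and 94.8% in input, per kilobase of exon. VGLUT2 made up 4.93% and 4.88% in IP and 5.58% and 4.58% in input, so the shares of both overlapped between the groups (exact permutation p = 0.667 and p = 1 for 2 against 2 libraries). VGLUT3 held 0.259% and 0.386% in IP and 0.725% and 0.616% in input, without overlap (exact permutation p = 0.333, the smallest possible). Slc38a1 made up 47.9% and 47.2% of the pair of glutamine carriers in IP and 45.9% and 45.3% in input, again without overlap and with the same p.

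By a fixed rule the 3 genes nearest to Slc17a7 were Macrod2, a hydrolase of ADP-ribose marks (log2 fold change 0.43), Cend1, a neuronal protein of cell cycle exit (0.43), and Zfp212, a zinc finger gene (0.44). Nearness was the distance of log2 CPM, centred on each gene's mean, over the 4 libraries, and it was 0.0184, 0.0334 and 0.0343. Nearest to Slc17a6 were Ppp4c, the catalytic subunit of a phosphatase (0.39), Npas2, a clock transcription factor (0.39), and Car12, a carbonic anhydrase (0.39), at distances of 0.0260, 0.0266 and 0.0315. The distance was taken over 4 libraries and 10118 candidate genes, and these 6 genes are a description only.

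The enzymes and mitochondrial carriers that make and use glutamate are given beside the shares over all genes, 23.4% higher and 22.4% lower. Of 22 genes, all tested, 11 rose, 2 fell and 9 did not pass, with a median log2 fold change of 0.72 against -0.04 over all genes. Got1, the cytosolic aspartate aminotransferase, rose by 1.23 (SE 0.09), from 367.3 ± 10.1 CPM in input to 861.7 ± 17.4 CPM in IP (SD, n = 2 for each group). Slc25a22, a mitochondrial glutamate carrier, rose by 1.16 (SE 0.10), and Oat, which links ornithine to glutamate, rose by 2.24 (SE 0.10), from 33.2 CPM in input to 156.4 ± 0.235 CPM.

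Slc7a11, which exports glutamate in exchange for cystine, fell by 1.27 (SE 0.12), and Abat, which breaks down GABA, fell by 0.45 (SE 0.13), a call lost without IP 2 (edgeR adjusted p = 0.119) and without input 4 (edgeR adjusted p = 0.0675). Glud1, the glutamate dehydrogenase, had a mean of 332.6 ± 21.4 CPM in IP against 291.4 ± 14.1 CPM in input and did not pass (edgeR adjusted p = 0.0963). With library sizes alone 10 genes of the list were higher and 3 lower, with a median of 0.46. Got1, Slc25a22 and Oat stayed higher there.

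The other family members gave no common direction. Over all genes tested 23.4% were higher, 22.4% lower and 45.8% passed in either direction. The calls of 2 of 5 SLC1 genes and 3 of 6 SLC38 genes are near that background share. Slc1a2, the main glutamate carrier of astrocytes, fell by 0.61 (SE 0.08), from 2630 ± 63.8 CPM in input to 1729 ± 13.8 CPM in IP (SD, n = 2 each). Slc1a4, a carrier of small neutral amino acids, rose by 0.40 (SE 0.12), although not without input 4 (edgeR adjusted p = 0.132). These were the only calls among the 5 other SLC1 genes tested, whose median was -0.21. Of 6 other SLC38 genes tested, 2 rose and 1 fell, with a median of 0.00: Slc38a3, the SNAT3 gene of astrocytes, rose by 0.51 (SE 0.15), Slc38a7 rose by 0.47 (SE 0.18) and Slc38a6 fell by 2.09 (SE 0.27). Slc38a3 lost its call without IP 4 (edgeR adjusted p = 0.0872) and without input 2 (edgeR adjusted p = 0.0545), Slc38a7 without IP 2, IP 4 or input 2 in turn, and Slc1a4, Slc38a3 and Slc38a7 also with library sizes alone. With DESeq2 1 of the SLC38 genes rose. Slc38a9, the most abundant of the other SLC38 genes, had a mean of 35.1 ± 3.20 CPM in IP and 37.8 ± 2.25 CPM in input and did not pass.

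RNA of zinc transporters other than ZnT3 fell or did not pass. Of 8 SLC30 genes tested, 4 fell and 0 rose, with a median of -0.35, against 22.4% of all genes called lower. With library sizes alone 5 fell, and without input 2 there was 1 called higher. Slc30a10, an efflux carrier known for manganese, fell by 1.28 (SE 0.15), Slc30a5 by 0.78 (SE 0.15), Slc30a7 by 0.64 (SE 0.15) and Slc30a4 by 0.59 (SE 0.11). Slc30a9 had a mean of 186.0 ± 12.8 CPM in IP against 199.3 ± 1.83 CPM in input (n = 2 each, SD), and the log2 fold change of Slc30a3 was 0.11, as given above. Of the other SLC17 genes only Slc17a5, the lysosomal sialic acid transporter, and Slc17a9 were tested. Slc17a5 was at 24.2 ± 0.914 and 21.8 ± 3.07 CPM and did not pass, and Slc17a9, the vesicular nucleotide transporter, fell on few counts, 2 and 0 in IP against 16 and 10 in input (edgeR adjusted p = 0.0244), a call lost without IP 4 (edgeR adjusted p = 0.229) and without input 4 (edgeR adjusted p = 0.141). The gene was also not called with DESeq2 (adjusted p = 0.103) or with no filter on low counts (edgeR adjusted p = 0.0796), and it was not tested without input 2 or with the stricter filter.

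Other proteins of synaptic vesicles and the sorting machinery of vesicular transporters are set beside the same background, 23.4% higher over all genes and 43.9% higher among genes of 50 to 500 CPM. No test compared either list with other genes. Of 12 vesicle genes tested 7 rose and 2 fell (median 0.31): Syp, the vesicle protein synaptophysin, rose by 0.89 (SE 0.08), Slc6a17, a vesicular carrier of neutral amino acids, by 0.69 (SE 0.09) and Sv2b by 0.67 (SE 0.08), while Slc18a2, the vesicular monoamine transporter, fell by 1.07 (SE 0.24). The 7 include Slc18a3, called on 20 and 49 counts in IP against 15 and 7 in input (edgeR adjusted p = 0.0493). That call was lost with DESeq2 (adjusted p = 0.0955) and with library sizes alone (edgeR adjusted p = 0.0867). Slc32a1, which loads GABA and glycine, had a mean of 30.2 ± 1.18 CPM in IP against 26.8 ± 3.03 CPM in input (n = 2 each, SD) and did not pass (edgeR adjusted p = 0.285). Of the 11 genes of the AP-3 adaptor, the endophilins and Arl6ip5, 8 rose and 1 fell (median 0.45). AP-3 is known to sort ZnT3 to vesicles, and its subunit genes Ap3b2, Ap3d1 and Ap3m2 rose by 0.95 (SE 0.12), 0.80 (SE 0.10) and 0.73 (SE 0.09). Sh3gl2, an endophilin of vesicle recycling, rose by 0.71 (SE 0.09), and Arl6ip5, a binding partner of EAAC1, by 0.77 (SE 0.15). Without input 2 the vesicle genes called higher were 4. With library sizes alone 3 vesicle genes were higher and 3 lower, and 5 of the 11 sorting genes were higher and 2 lower.

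**Figure D4:**
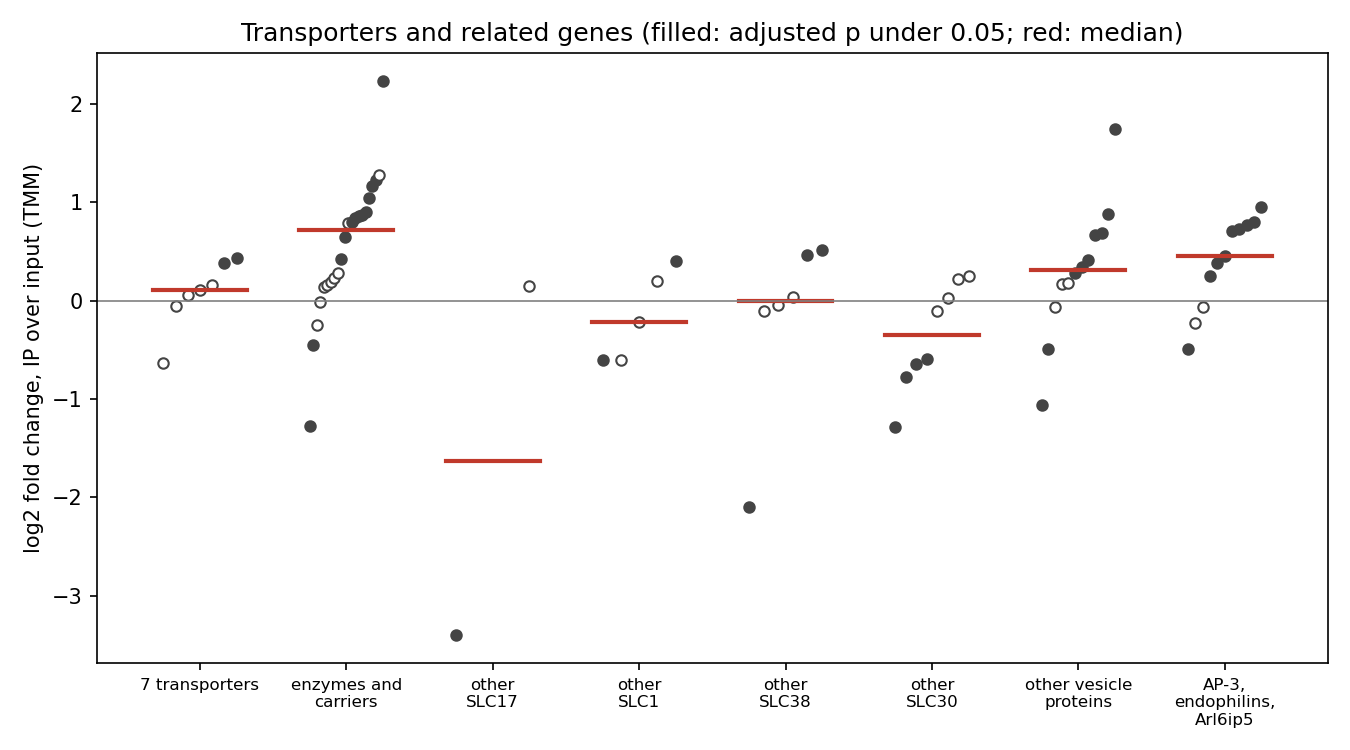
Log2 fold change of IP over input (TMM scaling) for the 7 transporters and for each group of related genes, 1 point per gene tested, with filled points for an adjusted p under 0.05 and red bars for medians. The transporters lie close to 0 with a median of 0.11, the enzymes and carriers reach 2.24 (Oat) around a median of 0.72, and the other SLC30 genes have a median of -0.35.

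Markers of other cells are given because astrocytes and interneurons also make parts of this system. Their counts stand beside the shares over all genes tested, 23.4% higher and 22.4% lower. No test compared any marker list with other genes. Of 12 astrocyte markers 4 rose and 6 fell (median -0.29), with a summed level of 3846 and 4179 CPM in IP and 4196 and 4208 CPM in input. Glul, the astrocytic glutamine synthetase that supplies neurons with glutamine, rose by 0.84 (SE 0.10), whereas Aqp4, the water channel of astrocyte endfeet, fell by 0.39 (SE 0.10), from 77.6 ± 3.32 CPM in input to 59.0 ± 0.845 CPM in IP (SD, n = 2 each). Of 13 GABAergic markers 1 rose and 5 fell (median -0.13), with sums of 1086 and 1306 CPM in IP and 1193 and 1233 CPM in input, and no marker of the glutamatergic, GABAergic or astrocyte list was at 0 in any library. The count of GABAergic markers higher ran from 0 (without input 2) to 3 (without IP 2), with 2 without input 4. Of 12 glutamatergic markers 6 rose and 3 fell (median 0.24, or -0.02 when scaled by library size alone). Among them Neurod6, a factor marking excitatory cells of the cortex, rose by 1.42 (SE 0.10) and Rorb, a nuclear receptor of layer 4, fell by 0.96 (SE 0.10). The part of these cell types in the transporter values was not tested. Of 10 oligodendrocyte markers 2 rose and 5 fell, of 10 microglial markers 1 rose and 2 fell, of 10 endothelial and mural markers 1 rose and 1 fell, and of 4 choroid plexus markers tested 0 rose and 2 fell.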

How the data were processed

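Polysome-bound RNA (IP) and total RNA (input) of mouse cortex were measured in 4 libraries, 2 in each group. The deposited values are raw counts per gene name, 1 file per library. STAR 2.0.0e, HTSeq and mm10 are named per the submitters' processing notes, while for annotation, strand setting and library kit the answer is not given in the sources used here. Left out were lines without a gene name, whose shares of records differed between the groups. Reads without a feature were 7.31% and 7.54% in IP and 14.9% and 13.5% in input. Ambiguous reads were 1.54% in each IP library and 5.07% and 5.09% in input. Reads without a unique alignment were 37.0% and 38.0% in IP and 32.1% and 30.7% in input. A line named unknown held 0 to 2 counts. The bearing of these differences on the fold changes was not tested.

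The test across genes was that of edgeR 4.0.16 under R 4.3.3 (TMM factors 0.909 to 1.10, filterByExpr with a minimum count of 10 and a minimum total of 15, quasi-likelihood test, two-sided, adjusted over 16600 genes of 21923 with a count). Standard errors are the absolute log2 fold change divided by the square root of F. DESeq2 1.42.0 was an alternative. Replicates differed by far more than sampling noise (chi-square per degree of freedom 21.2 in IP and 14.5 in input), so none was a copy. GENCODE vM21 (GRCm38, which is mm10) gave lengths, coordinates and coding sequences. Coding sequences were aligned globally, and figures drawn with matplotlib 3.10.9. Genes named from the lists were up to 4 called members with the largest absolute change, from 5 CPM upward, and the most abundant member, of which 1 is not reported here. Others (Glud1, Abat, Slc38a6, Slc17a9, Slc18a3, Slc32a1, 4430402I18Rik, Rora and other single markers) were chosen after their values were seen. The transporters and lists were chosen with earlier results of these data known. The method was tested on simulated data.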

Additional observations from a re-analysis of the deposited data

How the results depend on the processing

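The Slc17a7 call held with DESeq2, DESeq2 size factors, no filter, a stricter filter, without Rn45s and 5 genes that stood apart, and without each library in turn (log2 fold change 0.34 to 0.54). That of Slc17a6 held in the same settings except without IP 2 or input 4 (0.32 to 0.47 over the libraries left out). With library sizes alone, log2 fold changes were 0.17 for Slc17a7, 0.12 for Slc17a6, -0.90 for Slc17a8, -0.15 for Slc30a3, -0.10 for Slc1a1, -0.20 for Slc38a1 and -0.31 for Slc38a2, with 2151 genes higher and 5910 lower against 3886 and 3719. This comes from the scaling itself, which moves all genes together. With 0.5 as the log2 fold change to exceed, 1279 genes were higher and 1705 lower, and neither Slc17a7 (0.43, edgeR adjusted p = 0.892) nor Slc17a6 (0.38, edgeR adjusted p = 0.963) passed. The difference in the VGLUT3 share was -0.35 percentage points by exon length, -0.21 by the longest transcript and -0.20 by the longest protein-coding transcript, since length sets the share.

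With a replicate block 4314 genes were higher and 4037 lower, and no transporter changed its call. Deviations of same-numbered libraries correlated at 0.05 across genes, and the labels do not tie a number to an animal. Slc17a8 rests on 67 to 150 counts per library, and how much of its standard error comes from depth was not tested.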
